A study of Homo sapiens with 15 samples.

Results

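The DNA replication and S-phase genes described here are 46 genes taken by name, from the factors that license replication origins to the enzymes that copy, join and repackage DNA. All 46 were in the table of 37787 genes, each under 1 identifier, and all 46 passed the filter on low counts that left 13868 genes for testing. They were measured by RNA sequencing in HGrC1, an immortalized human granulosa cell line with its own FOXL2 alleles, used at passage 14. Cells were transfected for 4 h in serum-free medium and cultured for a further 24 h without serum, and each of 5 conditions had 3 libraries, named A, B and C. Vectors received vector plasmids. FOXL2WT received SMAD3 and wild-type FOXL2, and FOXL2C134W received SMAD3 and FOXL2 with the C134W substitution found in adult granulosa cell tumors. FOXL2WT + FOXO1 and FOXL2C134W + FOXO1 received FOXO1-3A (FOXO1 hereafter), a form of FOXO1 that kinase signalling cannot inactivate, on top of the same plasmids, so that SMAD3 was in every condition except Vectors. Transfection was transient and the RNA came from the whole well. Nothing in the labels says that A, B and C were separate cultures, so p-values measure the spread between these libraries, which may be technical, and in such bulk samples fewer cycling cells and less of an RNA per cell cannot be told apart.

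Library totals ran from 14962245 to 25339094 counts, and each library had at least 60 counts of each of the 46 genes. The 46 genes held 0.405% to 0.430% of the counts of a library. Levels are in CPM, the share of a library that a gene took after scaling by the trimmed mean of M values (TMM), given as mean ± SD of 3 libraries, and a gene is called where the adjusted p of the quasi-likelihood test of edgeR over all tested genes is under 0.05. The transfected genes followed the labels. FOXL2 was at 8.73 CPM ± 0.704 in Vectors, 561 CPM ± 5.89 in FOXL2WT and 147 CPM ± 27.0 in FOXL2C134W. SMAD3 was at 249, 2770 and 843 CPM in those conditions, and FOXO1 was at 117 CPM in FOXL2WT + FOXO1, 43.2 CPM in FOXL2C134W + FOXO1 and at most 13.2 CPM on average in the others. FOXL2C134W and FOXL2WT thus differed in the amounts of both transfected RNAs as well as in the allele. For the comparisons between them the allele and the RNA dose cannot be told apart. Dose here means RNA. By Western blot of samples cultured in parallel, the paper describes wild-type FOXL2, mutant FOXL2 and FOXO1 as balanced in protein, and it gives no SMAD3 protein there. Of the granulosa markers, KRT18 and GATA4 were present at condition means of 1670 to 1860 and 72.2 to 87.2 TPM, a unit scaled for transcript length and library size. WT1 lay between 25.7 and 70.9 TPM, FST between 26.4 and 31.3, NR5A1 between 2.71 and 3.32 and INHBA between 1.64 and 2.02. FOXL2, itself on the granulosa list, had a mean of 3.83 TPM in Vectors. FSHR was listed at 0 in every library, and the means of INHA, CYP19A1 and AMHR2 were at most 0.114, 0.106 and 0.354 TPM. Among markers of other cell types, PTPRC and CD3E means were at most 0.091 and 0.025 TPM. CD68 (condition means of 96.3 to 119 TPM), KRT7 (2140 to 2910 TPM) and COL1A1 (372 to 542 TPM) were expressed in all conditions, and KRT7 lay above KRT18. Other epithelial and stromal markers were lower, with EPCAM, CDH1, COL1A2, PDGFRA and DCN means of at most 7.79, 0.435, 0.47, 0.543 and 1.49 TPM. The endothelial PECAM1, VWF and CDH5 were at most at 1.11, 0.192 and 2.1 TPM. STAR, the highest of the luteal or theca markers, was at most at 2.47 TPM.

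A cell prepares to copy its genome in G1, when the origin recognition complex, CDC6 and CDT1 load the ring of MCM2 to MCM7 onto origins. At the start of S phase CDC45 and the GINS complex turn this ring into an active helicase, primase and the polymerases synthesize DNA behind it, PCNA clamps the polymerases onto the template, and FEN1 and LIG1 finish the lagging strand. Most of the genes are transcribed around the G1/S boundary, where E2F factors bind their promoters. Granulosa cells divide intensively in growing follicles and leave the cycle when they luteinize, and serum-free culture, used in all 5 conditions, generally slows cycling.

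The promoters were read from RefSeq (GRCh38.p14) as the 250 bases before and 50 bases after each start, for 40 of the 46 genes. MCM4, MCM5, GINS4, POLD3, RPA2 and CCNE2 had no entry. An E2F octamer (TTTCCCGC, TTTCGCGC, TTTGCCGC or TTTGGCGC on either strand, each counted also where it overlaps another) was in 21 of the 40 (52.5%) and in 3.33% of 27305 promoters of the same length, or 4.44% of the 15842 that belong to protein-coding genes. CCAAT on either strand was in 23 of the 40 (57.5%) and in 35.7% of all promoters. The forkhead heptamer GTAAACA was in 0 of the 40 and in 3.41% of all promoters. Of the 9 genes with a promoter that were called in any comparison below, 7 held an E2F octamer, and of the 31 that were called in none, 14 did. A match only says that the letters are in the window. The stretches from 120 bases before to 5 bases after the start follow for the genes on which the results turn, 5′ to 3′ on the strand of the gene, with E2F octamers in capitals. CHAF1A, UHRF1, CLSPN and LIG1 were higher in FOXL2C134W than in FOXL2WT, PCNA, TYMS and ORC6 were lower in FOXL2C134W than in Vectors, and MCM7 was called in no comparison.
CHAF1A, chr19:4402520-4402644, plus strand: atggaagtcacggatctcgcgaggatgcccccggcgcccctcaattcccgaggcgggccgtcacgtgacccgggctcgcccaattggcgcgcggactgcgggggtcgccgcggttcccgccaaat
UHRF1, chr19:4909381-4909505, plus strand: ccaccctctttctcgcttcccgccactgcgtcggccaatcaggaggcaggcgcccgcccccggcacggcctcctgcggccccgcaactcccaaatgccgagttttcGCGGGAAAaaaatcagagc
CLSPN, chr1:35769974-35770098, minus strand: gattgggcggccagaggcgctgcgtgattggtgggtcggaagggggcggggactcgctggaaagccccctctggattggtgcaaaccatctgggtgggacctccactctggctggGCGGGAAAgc
LIG1, chr19:48170340-48170464, minus strand: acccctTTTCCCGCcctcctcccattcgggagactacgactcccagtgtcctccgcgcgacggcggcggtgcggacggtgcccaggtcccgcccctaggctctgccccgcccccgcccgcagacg
PCNA, chr20:5126618-5126742, minus strand: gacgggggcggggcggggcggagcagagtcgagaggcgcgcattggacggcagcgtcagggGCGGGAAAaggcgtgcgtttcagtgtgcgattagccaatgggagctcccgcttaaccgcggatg
TYMS, chr18:657533-657657, plus strand: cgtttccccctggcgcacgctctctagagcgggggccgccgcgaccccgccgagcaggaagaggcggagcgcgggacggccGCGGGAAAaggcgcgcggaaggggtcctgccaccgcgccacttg
ORC6, chr16:46689539-46689663, plus strand: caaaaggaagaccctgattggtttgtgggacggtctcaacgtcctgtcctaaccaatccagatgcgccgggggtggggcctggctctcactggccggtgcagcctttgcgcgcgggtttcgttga
MCM7, chr7:100101393-100101517, minus strand: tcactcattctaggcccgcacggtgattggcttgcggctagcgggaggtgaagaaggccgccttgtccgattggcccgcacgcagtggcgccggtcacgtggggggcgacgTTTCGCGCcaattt
CHAF1A and ORC6 had no E2F octamer in these stretches or in the rest of their windows. In UHRF1 and CLSPN the octamer started 14 and 5 bases before the start, in MCM7 9 bases, in TYMS 39, in PCNA 59 and in LIG1 114 bases before it.

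Per transcript length the 46 genes covered a wide range of levels. PCNA, the sliding clamp, was highest with a mean of 236 TPM over the 15 libraries, followed by the helicase subunit MCM4 at 229 TPM, by RRM2, the regulated subunit of ribonucleotide reductase, at 198 TPM, and by MCM7 at 182 TPM. The lowest were CCNE1 at 3.03 TPM and E2F2 at 4.95 TPM. The 6 subunits of the MCM ring ran from 71.5 TPM for MCM6 to 229 TPM for MCM4, whereas the 4 GINS genes lay between 21.7 and 27.4 TPM. These values sum all transcripts of a gene, also short noncoding ones. For MCM4, 40.4% of the TPM came from a 366-base nonsense-mediated decay transcript and 11.8% from a 235-base processed transcript. For RRM2, 34.0% came from a 573-base retained intron transcript. In CPM, MCM4 (230) lay below MCM7 (333), so the order of subunits depends on the unit. The TPM of MCM4 spread from 171 to 409 between libraries although its CPM spread by far less. TPM depends on how reads are assigned among transcripts of different length, and the cause of the spread was not tested. Across conditions the levels hardly moved. The ratio of the highest to the lowest condition mean had a median of 1.1 over the 46 genes and exceeded 1.2 in 4 of them, CLSPN (1.38), CHAF1A (1.36), UHRF1 (1.26) and RFC1 (1.21), which were picked out here by that value. The lowest condition was FOXL2WT for 18 genes and FOXL2C134W for 14, and it was FOXL2C134W + FOXO1 for 2. In all, 10 genes were called in at least 1 of 7 comparisons and 36 in none.

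**Figure D1:**
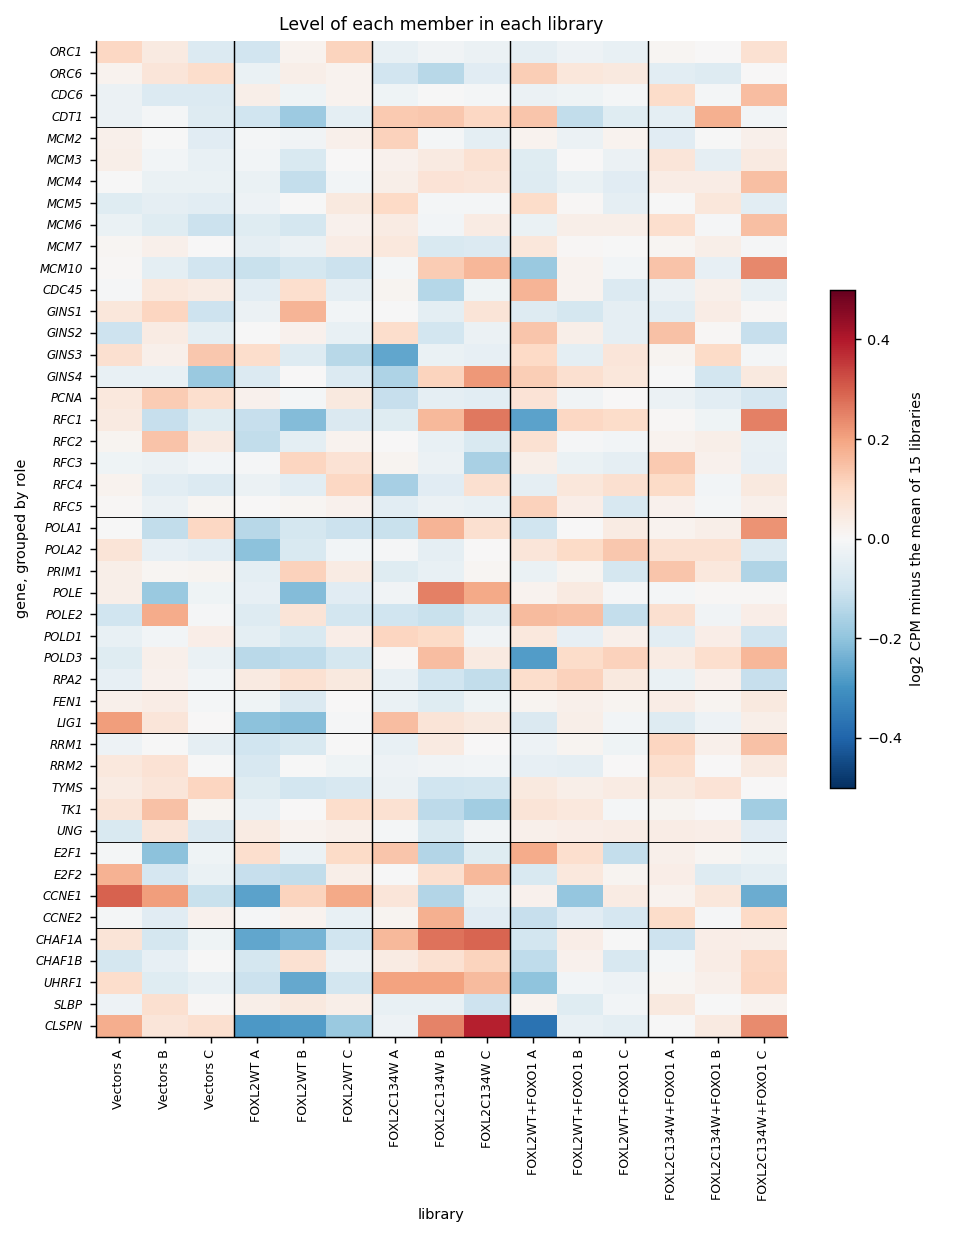
Level of each of the 46 genes (rows, grouped by role) in each of the 15 libraries (columns), as log2 CPM minus the mean over the libraries. Most rows are pale. CHAF1A, UHRF1 and CLSPN near the bottom are blue in FOXL2WT and red in FOXL2C134W, except that CLSPN is near 0 in FOXL2C134W A, and FOXL2WT + FOXO1 A is low in CLSPN, RFC1 and POLD3.

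The first question was what wild-type FOXL2 with SMAD3 did to these genes. In FOXL2WT, 0 of the 46 were called higher than in Vectors and 3 were called lower, CLSPN, LIG1 and TYMS, beside 2.46% of all tested genes called higher and 3.61% called lower. At an unadjusted p under 0.05 there were 7 of the 46 genes, beside 2878 of the 13868 tested genes, and DESeq2 called 3. The median log2 fold change was -0.04 over the 46 genes and 0.00 over all genes, and 29 of the 46 had a negative value. CLSPN encodes claspin, the fork protein that passes the checkpoint signal to CHK1. It was at 47.5, 43.7 and 44.3 CPM in Vectors and at 34.3, 34.5 and 36.8 CPM in FOXL2WT, with no overlap, a log2 fold change of -0.36 ± 0.10 (SE, adjusted p = 0.036). TYMS, which makes thymidylate for DNA synthesis, was at 150, 152 and 157 CPM in Vectors and 140, 137 and 138 CPM in FOXL2WT (-0.15 ± 0.04, adjusted p = 0.020). LIG1, the ligase that joins Okazaki fragments, was at 46.7, 42.2 and 40.5 CPM in Vectors and 35.1, 34.9 and 40.3 CPM in FOXL2WT (-0.22 ± 0.07, adjusted p = 0.048), so its highest FOXL2WT library came next to its lowest Vectors library. These calls rested on single libraries. Without Vectors B, FOXL2WT A or FOXL2WT B 0 genes were called, and without Vectors A, Vectors C or FOXL2WT C 1 gene was called, and with DESeq2 on transcript length offsets TYMS alone was called at -0.25. LIG1 was also lost with a replicate block.

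In FOXL2C134W, 2 of the 46 genes were called higher than in Vectors and 3 lower, beside 7.48% and 7.24% of all tested genes. The median was 0.01 over the 46 genes and 0.00 over all genes. The 2 that rose were CHAF1A and UHRF1. CHAF1A, the large subunit of chromatin assembly factor 1, which deposits histones behind the fork, rose 1.19-fold from 42.8, 38.5 and 40.3 CPM to 45.8, 49.4 and 50.1 CPM (log2 0.26 ± 0.06, adjusted p = 0.0073). UHRF1, which brings the maintenance DNA methyltransferase to hemimethylated sites, rose 1.14-fold from 97.1, 87.7 and 89.0 CPM to 105, 105 and 102 CPM (0.19 ± 0.06, adjusted p = 0.028). Neither gene overlapped between the conditions.

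The 3 genes that fell are a clamp, a nucleotide enzyme and an origin subunit, and each changed by about 10%. PCNA was at 228, 240 and 233 CPM in Vectors and 203, 213 and 212 CPM in FOXL2C134W (log2 -0.16 ± 0.04, adjusted p = 0.0067). TYMS was at 143, 136 and 137 CPM in FOXL2C134W (-0.15 ± 0.04 against Vectors, adjusted p = 0.010), close to its level in FOXL2WT. ORC6, the smallest subunit of the origin recognition complex, was at 60.2, 62.0 and 63.1 CPM in Vectors and 55.6, 53.9 and 57.1 CPM in FOXL2C134W (-0.15 ± 0.04, adjusted p = 0.022). The libraries of these 3 genes did not overlap between the conditions. The count of 5 fell to 3 without Vectors B and to 2 without Vectors C or FOXL2C134W B, and with DESeq2 on transcript length offsets it was 2, PCNA and TYMS. FOXL2WT and FOXL2C134W were compared with the same Vectors libraries, and whether their changes from Vectors differ is the comparison that follows.

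FOXL2C134W was then compared with FOXL2WT. The conditions differ in the form of FOXL2 transfected and in transfected RNA, with FOXL2 at 0.263-fold and SMAD3 at 0.305-fold in FOXL2C134W. Of the 46 genes 6 were called higher in FOXL2C134W and 1 lower (13.0% and 2.17%), beside 7.13% and 4.12% of all tested genes, and the median log2 fold change was 0.02 over the 46 genes and -0.01 over all genes. The higher genes were CHAF1A, UHRF1, CLSPN, LIG1, POLE and CDT1, and the lower gene was RPA2. At an unadjusted p under 0.05 there were 16 of the 46 genes, beside 3535 of the 13868 tested genes. By role, 3 of the 5 genes of chromatin assembly, histone mRNA and fork checkpoint were called, 1 of 4 in origin licensing, 2 of 8 among the polymerases, primase and single-strand binding protein, and 1 of 2 in flap removal and ligation. None of the 12 helicase genes, the 6 clamp and clamp loader genes, the 5 nucleotide genes or the 4 G1/S regulators was called. The roles were grouped for this description, with earlier results of these data known, so the shares per role are not a test.

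CHAF1A was at 34.2, 34.8 and 38.2 CPM in FOXL2WT and 45.8, 49.4 and 50.1 CPM in FOXL2C134W, 1.35-fold higher (log2 0.43 ± 0.06, adjusted p = 0.00022). All 3 FOXL2C134W libraries lay above all 3 FOXL2WT libraries. CLSPN went from 34.3, 34.5 and 36.8 CPM to 41.2, 49.7 and 54.8 CPM, 1.37-fold higher (0.46 ± 0.10, adjusted p = 0.0048). Its FOXL2C134W libraries were far apart, and the lowest of them lay closer to FOXL2WT than to the highest. UHRF1 went from 84.8, 76.5 and 85.8 CPM to 105, 105 and 102 CPM, 1.26-fold higher (0.33 ± 0.06, adjusted p = 0.00093). The partner subunit CHAF1B was at 39.1 CPM ± 2.22 and 41.5 CPM ± 1.00 (log2 0.09, 95% interval -0.04 to 0.21) and was not called. The difference in change between both subunits was not tested. SLBP, which binds the stem-loop of histone mRNA and was the most abundant gene of this role, was at 136, 138 and 136 CPM in FOXL2WT and 130, 130 and 124 CPM in FOXL2C134W (-0.09 ± 0.04, adjusted p = 0.14). Its conditions did not overlap.

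LIG1 was at 35.1, 34.9 and 40.3 CPM in FOXL2WT and 45.0, 42.3 and 41.8 CPM in FOXL2C134W (log2 0.22 ± 0.07, adjusted p = 0.033), back within the range of Vectors. POLE, the catalytic subunit of the leading-strand polymerase, was at 37.2, 32.9 and 36.8 CPM and at 37.8, 45.5 and 43.6 CPM (0.24 ± 0.07, adjusted p = 0.031). CDT1, which helps load the MCM ring, was at 31.3, 29.6 and 32.4 CPM and at 36.7, 36.8 and 36.0 CPM (0.23 ± 0.07, adjusted p = 0.040). In POLE the lowest FOXL2C134W library was just above the highest FOXL2WT library, whereas CDT1 was tight in both conditions. With a replicate block CDT1 was not called. RPA2, a subunit of the protein that covers single-stranded DNA, fell from 99.0, 101 and 99.1 CPM to 93.5, 89.5 and 88.2 CPM (-0.14 ± 0.04, adjusted p = 0.043).

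CHAF1A, CLSPN and UHRF1 were called without any 1 of the 15 libraries, with log2 fold changes of 0.40 to 0.49, 0.36 to 0.57 and 0.29 to 0.37. The calls of LIG1, POLE, CDT1 and RPA2 were lost without 5, 4, 6 and 11 of the libraries in turn, so that 4 genes were called without FOXL2WT A and 3 without FOXL2WT B, FOXL2C134W B or FOXL2C134W C. LIG1, POLE and RPA2 were also lost in a fit on only the groups compared. RPA2 was lost as well with the size factors of DESeq2 in edgeR and with no filter on low counts, and was called in 3 of 9 alternatives. With DESeq2 on transcript length offsets only UHRF1 was called (0.35), while CHAF1A stood at 0.39 (adjusted p = 0.35) and CLSPN at 0.37 (adjusted p = 0.11).

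**Figure D2:**
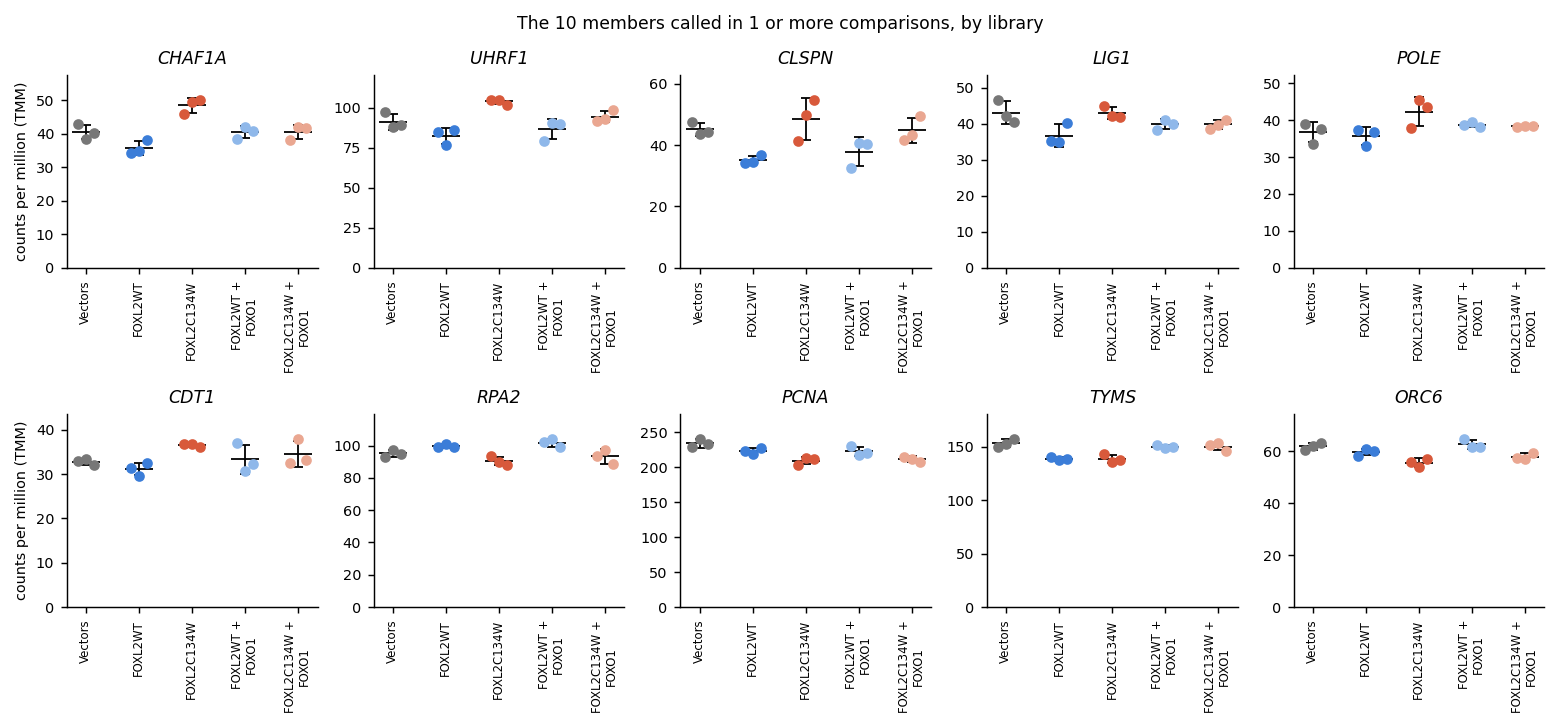
CPM of the 10 genes called in at least 1 comparison, with 1 point per library (A, B and C from left to right), a horizontal bar for the mean and an error bar for the SD of 3 libraries, on axes that start at 0. The FOXL2C134W points of CHAF1A, UHRF1 and CLSPN lie above all FOXL2WT points, and those of PCNA, TYMS and ORC6 lie below all Vectors points.

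The MCM ring showed how small a change these data could still bound. Over MCM2 to MCM7 the log2 fold changes of FOXL2C134W against FOXL2WT ran from -0.02 to 0.11, and the 95% intervals of the 6 genes all lay between -0.10 and 0.19. MCM4 was at 225, 212 and 228 CPM in FOXL2WT and 235, 241 and 240 CPM in FOXL2C134W (0.11 ± 0.04, adjusted p = 0.085). MCM7 was at 330 CPM ± 10.2 and 326 CPM ± 16.4. MCM10, which helps to activate the ring, was at 62.5 CPM ± 0.578 and 71.8 CPM ± 4.55 (0.20 ± 0.07, adjusted p = 0.066), and CDC45 and the 4 GINS genes had values from -0.07 to 0.11. Against Vectors the intervals of MCM2 to MCM7 lay between -0.12 and 0.16 in FOXL2WT and between -0.13 and 0.19 in FOXL2C134W. Over all 46 genes, 33 had an interval of FOXL2C134W against FOXL2WT that stayed within 1.2-fold either way.

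CDC6, FEN1, RRM2 and CCNE2, each the gene with the highest TPM of its role, were not called either. CDC6, the origin loading ATPase, was at 154, 149 and 153 CPM in FOXL2WT and 149, 151 and 150 CPM in FOXL2C134W. FEN1, the flap endonuclease, was at 116, 112 and 118 CPM and at 115, 113 and 116 CPM. RRM2 was at 287, 303 and 299 CPM and at 298, 300 and 301 CPM (log2 0.02, 95% interval -0.06 to 0.10). In these 3 genes the conditions overlapped. CCNE2, a cyclin of the G1/S transition, was at 25.8, 26.2 and 25.2 CPM and at 26.1, 29.3 and 24.9 CPM. The least abundant gene, CCNE1, had between 60 and 112 counts per library, and its interval of -0.40 to 0.28 was the widest of the G1/S regulators, so that a change of that size was not detectable at this depth. RFC1, the large subunit of the clamp loader, had a log2 fold change of 0.26 with an interval of 0.06 to 0.47 and missed the threshold (adjusted p = 0.079), and the other 4 loader genes, RFC2 to RFC5, had values from -0.11 to 0.01.

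**Figure D3:**
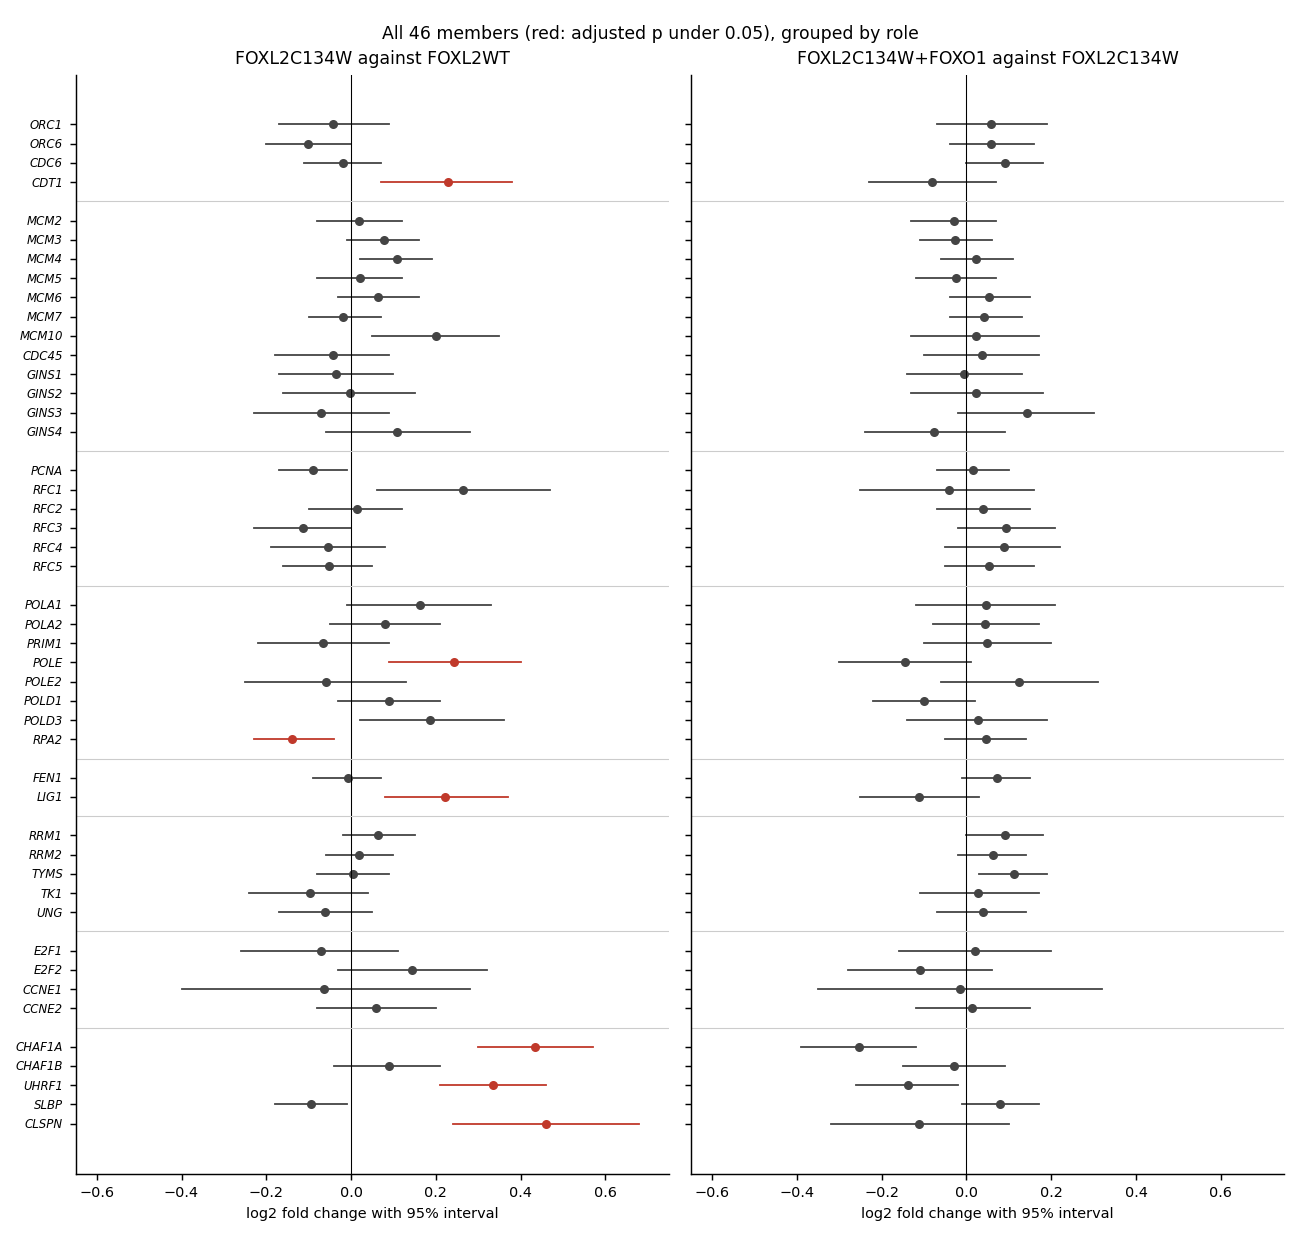
Log2 fold change (point) and 95% interval (line) of the 46 genes, grouped by role, for FOXL2C134W against FOXL2WT on the left and FOXL2C134W + FOXO1 against FOXL2C134W on the right. Called genes are red. There are 7 on the left, from RPA2 at -0.14 to CLSPN at 0.46, and 0 on the right, where CHAF1A at -0.25 is the lowest.

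The changes moved with transcript length. Over the 46 genes Spearman's rho between transcript length and the log2 fold change of FOXL2C134W against FOXL2WT was 0.592, and over 13863 tested genes it was 0.363. The genes share the same libraries and are not independent, so no p is given. The longest of the called genes were POLE (5109 bases), CLSPN (4820 bases) and UHRF1 (3912 bases), and RPA2 had 1428 bases, against a median of 2095 bases over the 46 genes and 2110 bases over all tested genes. With counts corrected for length in each library, CHAF1A (2576 bases) was still called at 0.42, CLSPN at 0.36 and UHRF1 at 0.27, while POLE (0.13, adjusted p = 0.18) and RPA2 (-0.08, adjusted p = 0.19) were not. For FOXL2C134W against Vectors rho was 0.656 over the 46 genes and 0.241 over all genes, and for FOXL2WT against Vectors it was -0.0974 and -0.153. For FOXL2C134W + FOXO1 against FOXL2C134W, described further on, it was -0.505 and -0.192. The share of mitochondrial counts was 0.314% to 0.369% in FOXL2C134W, 0.277% to 0.309% in FOXL2WT and 0.268% to 0.280% in Vectors, and its part in these changes was not tested.

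**Figure D4:**
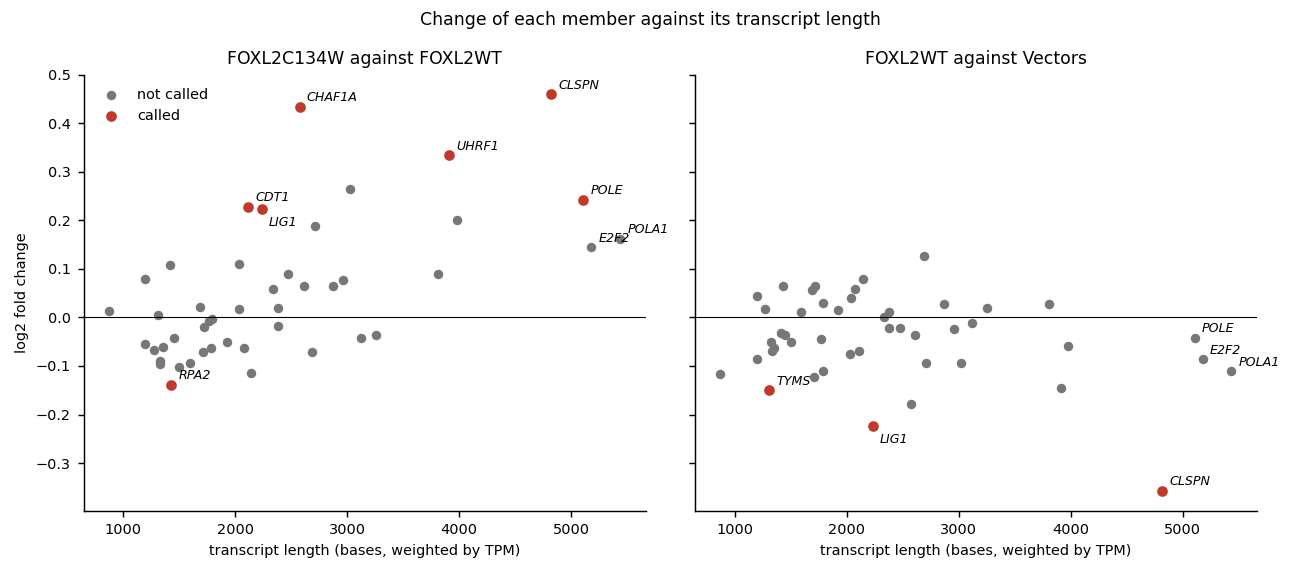
Log2 fold change of the 46 genes against transcript length in bases, for FOXL2C134W against FOXL2WT (left) and FOXL2WT against Vectors (right), with called genes in red. On the left the values tend to climb with length, the called genes running from RPA2 at -0.14 to CLSPN at 0.46, and on the right CLSPN is the lowest at -0.36.

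FOXO1 was added to ask whether it changes the effects of FOXL2. The other transfected RNAs did not stay level when it was added. SMAD3 fell to 0.350-fold in FOXL2WT + FOXO1 (969 CPM ± 10.8, edgeR, adjusted p = 1.5e-13) and to 0.465-fold in FOXL2C134W + FOXO1 (adjusted p = 8.1e-11), and FOXL2 fell to 0.685-fold in FOXL2WT + FOXO1 (adjusted p = 0.031). The presence of FOXO1 and the lower SMAD3 dose cannot be told apart in the FOXO1 comparisons. In FOXL2WT + FOXO1, 0 of the 46 genes were called against FOXL2WT by edgeR, beside 0.0144% of all tested genes called higher and 0.0361% called lower (2 and 5 genes, which became 4 and 18 with the correction for GC content). DESeq2 called 0, with 8 of the 46 left without an adjusted p. At an unadjusted p under 0.05 there were 3 of the 46, beside 1266 of the 13868 tested genes. Of the 46 values 35 were positive, with a median of 0.04 (0.00 over all genes). TYMS went from 140, 137 and 138 CPM to 151, 149 and 150 CPM (log2 0.12 ± 0.04, adjusted p = 0.31), with no overlap between the conditions. With DESeq2 on transcript length offsets MCM5 alone was called, lower.

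In FOXL2C134W + FOXO1, 0 of the 46 genes were called against FOXL2C134W by edgeR, beside 0.00721% of all tested genes called higher and 0.707% called lower. The 98 lower genes behind that share became 4 without FOXL2C134W B, FOXL2C134W C or FOXL2C134W + FOXO1 C, 10 without FOXL2C134W + FOXO1 A, 222 without FOXL2C134W + FOXO1 B and 338 without FOXL2C134W A. Here 5 of the 46 genes had an unadjusted p under 0.05, beside 1557 of the 13868 tested genes, and DESeq2 called CHAF1A. CHAF1A was at 45.8, 49.4 and 50.1 CPM in FOXL2C134W and 38.1, 41.9 and 41.7 CPM in FOXL2C134W + FOXO1 (log2 -0.25 ± 0.06, adjusted p = 0.056), all 3 libraries with FOXO1 lying below all 3 without it. It was called with the length correction, with no filter on low counts, and without Vectors A, FOXL2C134W A, FOXL2WT + FOXO1 A or FOXL2C134W + FOXO1 B. UHRF1 was at 92.0, 92.9 and 98.5 CPM with FOXO1 (-0.14 ± 0.06, adjusted p = 0.33), also below FOXL2C134W in every library. CLSPN was at 41.8, 43.2 and 49.4 CPM with FOXO1 (-0.11 ± 0.09, adjusted p = 0.74), within the range of FOXL2C134W. POLE was at 38.0, 38.4 and 38.4 CPM with FOXO1 (-0.14 ± 0.07, adjusted p = 0.45), overlapping FOXL2C134W. LIG1 was at 38.6, 39.7 and 41.2 CPM (-0.11 ± 0.06, adjusted p = 0.56), below FOXL2C134W in every library, and CDT1 was at 32.4, 37.9 and 33.2 CPM (-0.08 ± 0.07, adjusted p = 0.74), overlapping it. For 39 of the 46 genes the interval stayed within 1.2-fold either way.

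The effect of FOXO1 in FOXL2C134W was set against its effect in FOXL2WT by an interaction term. CHAF1A was the 1 gene of 46 called, with a lower value in FOXL2C134W, and 0 were called higher, beside 0.137% of all tested genes called higher and 1.25% called lower. In FOXL2WT, CHAF1A had 34.2, 34.8 and 38.2 CPM without FOXO1 and 38.4, 41.9 and 40.8 CPM with it (log2 0.17 ± 0.06, adjusted p = 0.42), the opposite direction to that in FOXL2C134W. The difference between both effects was -0.43 ± 0.09 (adjusted p = 0.018). With FOXO1, the means of CHAF1A were 40.4 CPM ± 1.77 and 40.6 CPM ± 2.12 in the presence of wild-type and mutant FOXL2, and in Vectors the mean was 40.5 CPM ± 2.14. The call was lost with the correction for GC content, with DESeq2 on transcript length offsets, and without FOXL2WT A, FOXL2WT B, FOXL2C134W B, FOXL2C134W C, FOXL2WT + FOXO1 B or FOXL2C134W + FOXO1 A, where the difference ran from -0.49 to -0.39 over all leave-outs. Without FOXL2C134W A POLE was called as well.

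FOXL2C134W + FOXO1 was also compared with FOXL2WT, a comparison in which the FOXL2 allele, FOXO1 and the RNA dose of the other transfected genes all differed. SMAD3 RNA was 0.142-fold and FOXL2 RNA 0.272-fold that of FOXL2WT, and their part in the values cannot be told apart from that of the allele and FOXO1. By edgeR 0 of the 46 genes were called, beside 0.685% of all tested genes called higher and 1.00% called lower (95 and 139 genes, which became 347 and 310 with the correction for GC content, 3 and 33 without FOXL2WT B, and 291 and 232 without FOXL2C134W A). There were 14 of the 46 genes at an unadjusted p under 0.05, beside 2572 of the 13868 tested genes. Of the 46 values 31 were positive, and the median was 0.05 (0.00 over all genes). CLSPN had a log2 fold change of 0.35 ± 0.10 (adjusted p = 0.072), MCM10 0.22 ± 0.07 (adjusted p = 0.094) and UHRF1 0.20 ± 0.06 (adjusted p = 0.081). DESeq2, which left 1 of the 46 without an adjusted p, called 6 genes, all higher, CLSPN, MCM10, MCM4, RRM1, TYMS and UHRF1. With edgeR, 2 genes were called without FOXL2C134W A, 4 without FOXL2WT + FOXO1 A and 2 without FOXL2C134W + FOXO1 B.

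Genes of neighbouring pathways were counted from lists of their own. Changes of FOXL2C134W against FOXL2WT moved with transcript length, and length-corrected values were not examined for these lists. Of 27 other origin and fork genes, 4 were called higher in FOXL2C134W than in FOXL2WT and 1 lower (14.8% and 3.70%, beside 7.13% and 4.12% of all tested genes). TICRR, which with its partners fires origins, had a log2 fold change of 0.53 ± 0.09 (15.1 CPM ± 0.878 and 21.9 CPM ± 3.17, adjusted p = 0.0012). ATAD5, which unloads PCNA, had 0.50 ± 0.14, CHTF18, of the alternative clamp loader, 0.41 ± 0.11, and TOP1, the topoisomerase that relaxes DNA ahead of the fork, 0.24 ± 0.07. The lower gene was POLE3, a histone-fold subunit of polymerase epsilon, at -0.19 ± 0.04. Against Vectors this list had 1 higher and 1 lower gene in FOXL2WT and the same counts in FOXL2C134W (3.70% each way). Over all tested genes the higher and lower shares were 2.46% and 3.61% in FOXL2WT and 7.48% and 7.24% in FOXL2C134W.

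Of 12 other nucleotide supply genes, DCK, a kinase that salvages deoxynucleosides, was called lower in FOXL2C134W than in FOXL2WT (-0.20 ± 0.05, adjusted p = 0.026). That is 8.33% of the list, beside 4.12% of all tested genes called lower. Against Vectors 1 was higher and 1 lower in both FOXL2WT and FOXL2C134W (8.33% each way). Over all tested genes these shares were 2.46% and 3.61% in FOXL2WT and 7.48% and 7.24% in FOXL2C134W. Of 17 E2F, pocket protein and DREAM genes, 2 were called higher in FOXL2C134W than in FOXL2WT and 2 lower. That is 11.8% each way, beside 7.13% and 4.12% of all tested genes. The higher genes were TFDP2 (0.22 ± 0.06), a dimer partner of E2F, and RBL1 (0.20 ± 0.06), a pocket protein whose libraries overlapped. The lower genes were E2F5 (-0.25 ± 0.08) and LIN52 (-0.19 ± 0.06). The list had 0 and 1 calls against Vectors in FOXL2WT and FOXL2C134W by edgeR. The 1 call was lower (5.88%, beside 7.24% of all tested genes). At an unadjusted p under 0.05 it had 5 and 3 of 17 genes, beside 2878 and 3830 of the 13868 tested genes.

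Of 15 cyclin-dependent kinases, cyclins and inhibitors of G1/S, 14 were tested. Against Vectors 8 were called lower in FOXL2C134W (57.1%, beside 7.24% of all tested genes) and 2 in FOXL2WT (14.3%, beside 3.61%), and none was called higher in either. In FOXL2C134W 11 of the 14 values against Vectors were negative and 3 positive. Means fell for kinases and cyclins too, such as CDK4 (10100 to 8650 CPM), CCND3 (104 to 90.9 CPM) and CCNA2 (243 to 217 CPM). Against FOXL2WT 3 genes, all inhibitors, were called lower in FOXL2C134W (21.4%, beside 4.12% of all tested genes). They were CDKN1C (-1.09 ± 0.22, from 2.12 to 0.992 CPM), CDKN2D (-0.58 ± 0.08, from 12.8 to 8.54 CPM) and CDKN1B (-0.16 ± 0.04, from 252 to 226 CPM). CDKN1C was the least abundant tested gene of the list. No gene of these 4 lists was called in FOXL2C134W + FOXO1 against FOXL2C134W by edgeR. At an unadjusted p under 0.05 they had 6 of 27, 1 of 12, 2 of 17 and 0 of 14 genes, beside 1557 of the 13868 tested genes.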

How the data were processed

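RNA from 15 HGrC1 libraries (5 conditions, 3 libraries each) was sequenced by the authors as 75-base single-end reads from a stranded mRNA kit. The authors deposited estimated counts per gene, made with Salmon 1.1.0 against hg38 and summed to genes, and per library a transcript table with estimated counts and TPM. The deposited TPM values were used only for levels between genes and for lengths. The annotation release behind the tables is not given in the sources used here, and 98.4% of transcripts matched GENCODE 44. Reads of wild-type, mutant and endogenous FOXL2 are not separated in gene counts. Reads assigned outside the gene table were 0.442% to 0.522% of a library.

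Estimated counts were rounded, filtered with filterByExpr (13868 genes left), scaled by TMM and fitted over all 15 libraries with the quasi-likelihood test of edgeR 4.0.16 in R 4.3.3, with Benjamini-Hochberg adjustment over all tested genes and a threshold of 0.05. The 95% intervals are the log2 fold change ± its SE times a t quantile at the residual degrees of freedom. The test itself also uses prior degrees of freedom, so these intervals are wider and can include 0 where its unadjusted p is under 0.05. The 7 comparisons were each FOXL2 condition against Vectors, FOXL2C134W against FOXL2WT, each FOXO1 condition against its own control, FOXL2C134W + FOXO1 against FOXL2WT, and the FOXO1 interaction. Scripts were tested on simulated data. Replicate libraries differed by more than counting noise, and all 15 were kept. Alternatives were DESeq2 1.42.0, DESeq2 with transcript length offsets, its size factors in edgeR, no filter, fits on only the groups compared, a replicate block, length and GC offsets, and leaving out each library. Library totals of 14962245 to 25339094 counts set the precision, which covers counting and the spread between libraries.

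The members and lists were chosen with earlier results of these data known. Values per library are given for members called in any comparison and for the member with the highest TPM of each role. Of each other list, at most 4 genes called in FOXL2C134W against FOXL2WT or FOXL2C134W + FOXO1 against FOXL2C134W are named, by size of change. Promoters came from RefSeq (GRCh38.p14).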

Additional observations from a re-analysis of the deposited data

Results flagged for a closer look

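For 6 of the genes named here the effect of FOXO1 in FOXL2C134W differed from its effect in FOXL2WT by the interaction term of edgeR (adjusted p under 0.05 over all tested genes), and conditions of 3 libraries were too small for a search for single outlying libraries. Among the replication genes this was CHAF1A alone, at -0.43 on the log2 scale (adjusted p = 0.018). Among 18 mitotic genes 2 were called lower by this term and 0 higher (11.1% lower, beside 1.25% of all tested genes). The proliferation marker MKI67 had -1.39 (adjusted p = 0.0067) and the mitotic transcription factor FOXM1 -0.29 (adjusted p = 0.041). For these 2 genes the leave-outs were not examined. The transfected genes differed too, with FOXO1 at -1.41 (adjusted p = 4.7e-05), SMAD3 at 0.41 (adjusted p = 0.0065) and FOXL2 at 0.60 (adjusted p = 0.033). FOXO1 was thus raised less in FOXL2C134W + FOXO1 (43.2 CPM ± 4.06) than in FOXL2WT + FOXO1 (117 CPM ± 14.5). The part of this unequal RNA dose in the other differences cannot be told apart from that of the allele. The paper describes FOXO1 protein as balanced.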

How the results depend on the processing

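No fold change of the 16 pairs of gene and comparison called here reversed under any alternative or leave-out. With DESeq2 on transcript length offsets the number of replication genes called was 1 for FOXL2WT against Vectors, 2 for FOXL2C134W against Vectors, 1 for FOXL2C134W against FOXL2WT, 1 for FOXL2WT + FOXO1 against FOXL2WT and 0 for the interaction, which also had 0 with the GC offset. The cause was not tested. For FOXL2C134W + FOXO1 against FOXL2WT, with 0 calls, DESeq2 gave 6, its size factors in edgeR 1, no filter 7, only the groups compared 2, the gene length offset 4, the GC offset 5, and the replicate block with the length offset 4, all higher. Over all genes its 95 higher and 139 lower calls became 380 and 239 with DESeq2 and 652 and 394 without the filter. Likewise 1 and 98 calls for FOXL2C134W + FOXO1 against FOXL2C134W became 8 and 215 with DESeq2 and 65 and 398 without the filter, 2 and 5 for FOXL2WT + FOXO1 against FOXL2WT became 24 and 38 or 169 and 91, 19 and 173 for the interaction became 51 and 314 or 90 and 461, and 341 and 501 for FOXL2WT against Vectors became 522 and 823 without the filter. With DESeq2 on transcript length offsets the higher and lower calls over all genes were 221 and 275 for FOXL2WT against Vectors, 493 and 478 for FOXL2C134W against Vectors (1037 and 1004 in the fit reported), 506 and 258 for FOXL2C134W against FOXL2WT (989 and 571), 130 and 111 for FOXL2C134W + FOXO1 against FOXL2WT, 16 and 45 for it against FOXL2C134W, 44 and 25 for FOXL2WT + FOXO1 against FOXL2WT and 32 and 94 for the interaction. With only the groups compared they were 738 and 952 for FOXL2WT against Vectors, 302 and 216 for FOXL2C134W + FOXO1 against FOXL2WT, 2 and 30 for it against FOXL2C134W and 6 and 8 for FOXL2WT + FOXO1 against FOXL2WT. The length offset gave 219 and 241 (251 and 235 with the replicate block) for FOXL2C134W + FOXO1 against FOXL2WT and 9 and 17 (8 and 14) for FOXL2WT + FOXO1 against FOXL2WT, and the GC offset 4 and 38 for FOXL2C134W + FOXO1 against FOXL2C134W. For FOXL2C134W + FOXO1 against FOXL2C134W, with 0 calls, DESeq2, no filter, the length offset and the replicate block with the length offset each gave 1, CHAF1A. Leaving out each of the 15 libraries in turn gave 0 to 3 calls for FOXL2WT against Vectors, 2 to 7 for FOXL2C134W against Vectors, 3 to 9 for FOXL2C134W against FOXL2WT, 0 to 4 for FOXL2C134W + FOXO1 against FOXL2WT, 0 to 1 for FOXL2C134W + FOXO1 against FOXL2C134W, 0 to 0 for FOXL2WT + FOXO1 against FOXL2WT and 0 to 2 for the interaction. Over all genes the leave-outs gave 136 to 434 higher and 169 to 652 lower calls for FOXL2WT against Vectors, 633 to 1230 and 608 to 1065 for FOXL2C134W against Vectors, 595 to 1372 and 177 to 748 for FOXL2C134W against FOXL2WT, 3 to 291 and 33 to 232 for FOXL2C134W + FOXO1 against FOXL2WT, 1 to 17 and 4 to 338 for it against FOXL2C134W, 1 to 5 and 1 to 6 for FOXL2WT + FOXO1 against FOXL2WT and 4 to 41 and 40 to 382 for the interaction. Deviations from the condition means correlated at r from -0.164 to 0.166 over 30 pairs of libraries with the same letter, 2 above 0.1. Over 60 pairs with different letters r ran from -0.122 to 0.123, 4 above 0.1. For 5 of 15 libraries the nearest library of another condition had the same letter. With only 3 libraries behind each mean, this cannot tell whether libraries of 1 letter shared a culture, a day or a batch. With the replicate block the counts were 2 for FOXL2WT against Vectors (LIG1 lost), 5 for FOXL2C134W against Vectors, 7 for FOXL2C134W against FOXL2WT (CDT1 lost and RFC1 added), 1 for FOXL2C134W + FOXO1 against FOXL2WT, 0 for both FOXO1 effects and 1 for the interaction. Depth limited mainly CCNE1, with 60 to 112 counts per library.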

Other observations

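Of 18 mitotic genes, 11 were called lower in FOXL2WT than in Vectors and 0 higher (61.1% lower, beside 3.61% of all tested genes). In FOXL2C134W 5 were lower and 1 higher than in Vectors (27.8% and 5.56%, beside 7.24% and 7.48%). Against FOXL2WT 5 were higher and 0 lower in FOXL2C134W (27.8% higher, beside 7.13%), where the median log2 fold change was 0.10 over the list and -0.01 over all genes. Of the 18 values 11 were positive and 7 negative. Changes in this comparison moved with transcript length (rho 0.363 over all genes), and length-corrected values were not examined for the mitotic genes. MKI67 was at 17.5, 19.3 and 18.7 CPM in FOXL2WT and at 39.9, 63.9 and 60.6 CPM in FOXL2C134W (log2 1.57 ± 0.16, edgeR, adjusted p = 1.3e-05). CENPF (0.97 ± 0.19) and CENPE (0.80 ± 0.20), which act at the kinetochore, and TOP2A (0.24 ± 0.07), which untangles sister chromatids, were also higher. FOXL2C134W A stood apart from the other FOXL2C134W libraries, with CENPF at 39.4 CPM against 79.1 and 78.4 CPM (FOXL2WT up to 36.1 CPM) and CENPE at 12.1 CPM against 22.3 CPM in the highest (FOXL2WT up to 11.7 CPM). With FOXO1, MKI67 was at 29.4, 35.1 and 31.9 CPM in FOXL2C134W + FOXO1, below all FOXL2C134W libraries. It was the 1 mitotic gene called there by edgeR (-0.77, adjusted p = 0.022). In FOXL2WT + FOXO1 against FOXL2WT 0 of the 18 were called by edgeR. There 6 of the 18 had an unadjusted p under 0.05, beside 1266 of the 13868 tested genes.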
